A study of Danio rerio with 9 samples.

Results

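The inner retinal neuron markers are genes used to recognise bipolar, amacrine, horizontal and ganglion cells, or neurons in general, and they were followed here in RNA from sorted Müller glia, the radial glial cells of the retina. Of 36 symbols chosen as such markers, 27 were found by name in the authors' zebrafish annotation and were joined by Ensembl identifier to the deposited table of 33737 genes. The markers were taken by name, but they were chosen with earlier results of these data known. The annotation also belongs to a table of 15530 genes that leans to higher levels, so markers with few reads could drop out. Tested genes in it had a median of 9.98 FPKM (fragments per kilobase of transcript, scaled to library size, a level per length) in unlesioned retinas, and the 4345 tested genes outside it one of 0.622 FPKM. The 27 comprise 8 bipolar, 11 amacrine, 1 horizontal, 2 ganglion and 5 pan-neuronal markers, and all 27 had enough reads to be tested.

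The cells came from adult fish of 8 to 11 months of the line Tg(gfap:EGFP)mi2002, in which regulatory sequence of the glial gene gfap drives green fluorescent protein. Every group carried this transgene, and cells of the dissociated neural retina were sorted by fluorescence. The groups were fish at 8 hours post lesion (hpl), fish at 16 hpl and unlesioned controls (0 hpl), with 3 RNA sequencing libraries each. Lesioned fish had been exposed to light of over 120000 lux for 30 minutes, a treatment that harms photoreceptors. The labels do not tell whether libraries derive from different fish or pools, so p-values cover the spread between these libraries, which may be technical. Lesion, bright light itself and the hour at which retinas were taken cannot be told apart.

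Bipolar cells carry signals from photoreceptors to the inner retina, and their ON type detects glutamate with a metabotropic receptor that acts through the G protein Go on the cation channel TRPM1. Amacrine cells, most of which release GABA or glycine, and horizontal cells shape these signals laterally, while ganglion cells send the axons of the optic nerve. In zebrafish, Müller glia give rise to new neurons after injury, and they take up transmitters that neurons release.

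The libraries held 11714633 to 26608088 expected counts, and 19875 genes were tested. Markers of Müller glia were present, with rlbp1a at 352 ± 47.8, cahz at 301 ± 41.9 and gfap at 32.7 ± 7.16 FPKM at 0 hpl (mean ± SD, n = 3). The rod opsin gene rho stood at 42500 ± 15900 FPKM in the same libraries, so photoreceptor RNA was measured beside that of glia. Whether a marker's reads came from neurons or from glia was not tested, and in such bulk samples fewer cells of a type and less RNA per cell cannot be told apart. Libraries are listed below in the order of replicates 1, 2 and 3. The clock gene per1b had 998, 1140 and 664 CPM (counts scaled to the size of each library) at 0 hpl, 181, 1310 and 195 CPM at 8 hpl, and 1210, 369 and 1490 CPM at 16 hpl. Its 3 lowest libraries, 8 hpl replicates 1 and 3 and 16 hpl replicate 2, are called the per1b-low libraries, and results are also given without them.

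In unlesioned retinas the markers spanned a wide range of levels per length, and bipolar and synaptic genes led it. At 0 hpl 10 of the 27 lay over 100 FPKM, 13 between 10 and 100 and 4 under 10, with a median of 42.9 FPKM. The median of the 15530 genes among which they had to be named was 9.98 FPKM. The 6 symbols absent from that annotation that matched a row of the count table were low there. The high median is thus partly fixed by how the markers were found. cabp5a (ENSDARG00000002576), for a calcium-binding protein of bipolar cells, was highest of the 27 at 2010 ± 411 FPKM, rank 60 of 33737 genes. snap25b (ENSDARG00000058117), for a SNARE protein of synaptic vesicle fusion, followed at 873 ± 28.4 FPKM. Next came vsx1 (ENSDARG00000056292), a homeobox gene of bipolar cells, at 410 ± 54.1 FPKM, and gnao1b, for the alpha subunit of Go, at 357 ± 44.8 FPKM. These neighbours did not differ beyond their spread. neurod4, a proneural transcription factor gene, stood at 240 ± 14.1 FPKM.

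Among amacrine markers, gad1b, for a GABA-synthesising enzyme, was highest at 167 ± 72.9 FPKM at 0 hpl. It differed by less than that spread from calb2b, for the calcium buffer calretinin, at 128 ± 8.35 FPKM. gad2, for the other GABA-synthesising enzyme, stood at 14.5 ± 1.01 FPKM and chata, for the enzyme that makes acetylcholine, at 24.2 ± 6.11 FPKM. prox1a, a homeobox gene of horizontal cells that other retinal cells also use, stood at 17.5 ± 2.71 FPKM. Of the ganglion cell markers, the RNA-binding protein gene rbpms2b stood at 40.2 ± 3.46 FPKM and the LIM homeobox gene isl2b at 1.90 ± 0.698 FPKM, the lowest of the 27. The neuronal RNA-binding protein genes elavl3 and elavl4 were also low, at 5.46 ± 0.529 and 4.01 ± 0.590 FPKM.

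**Figure D1:**
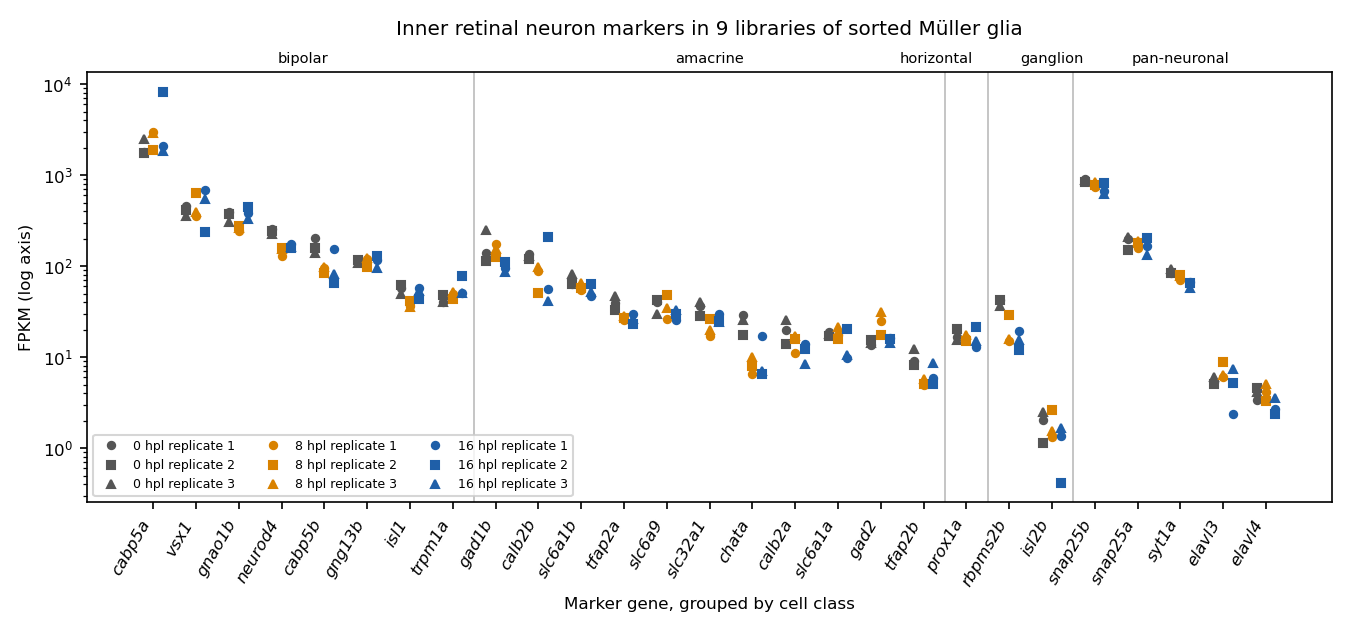
FPKM (log axis) of the 27 markers in each of the 9 libraries, grouped by cell class and ordered by the mean at 0 hpl. The bipolar gene cabp5a, at a mean of 2010 FPKM at 0 hpl, and the pan-neuronal snap25b, at 873 FPKM, lie highest, and isl2b, at 1.90 FPKM, lies lowest.

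The remaining 9 symbols were not in that annotation. Of them th, lhx1a, onecut1, pou4f1, pou4f2 and pou4f3 matched a row of the count table through a separate table of gene names. th, for the enzyme that limits dopamine synthesis, had 25, 82 and 21 counts summed over the libraries of 0, 8 and 16 hpl, and the ganglion cell transcription factor gene pou4f2 had 42, 65 and 34. Such sums are not scaled to library size, and no change between times is read from them. None of the 6 was above 2.09 CPM in any library, a value reached by lhx1a, a horizontal cell homeobox gene. trpm1b, prkcaa and gad1a were not analysed here.

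At 8 hpl 2 amacrine markers fell against 0 hpl and none of the 27 rose. Across all genes tested 2.83% were called in this comparison and 0.931% were called lower (edgeR's quasi-likelihood test, Benjamini-Hochberg adjusted p under 0.05). tfap2b (ENSDARG00000012667), for an AP-2 transcription factor of amacrine cells, had 11.0, 11.1 and 11.8 CPM in the libraries of 8 hpl, against 21.1, 19.9 and 27.3 CPM in unlesioned ones. Its 8 hpl libraries lay close together and below every control. The log2 fold change was −1.01 ± 0.20 (SE, adjusted p = 0.0303). For chata (ENSDARG00000015854), values of 10.8, 12.7 and 15.8 CPM at 8 hpl stood against 46.2, 28.5 and 40.1 CPM in controls. Again the groups did not overlap, and the controls were the more scattered. Its log2 fold change was −1.54 ± 0.36 (adjusted p = 0.0497).

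Both calls sat near the threshold. The tfap2b call ended when any 1 of 0 hpl replicates 1, 2 and 3, 8 hpl replicates 1 and 3 or 16 hpl replicate 1 was left out. Its adjusted p then reached 0.152, and the log2 fold change stayed between −1.08 and −0.86. The chata call ended without any 1 of the 6 libraries compared or 16 hpl replicate 3, where its adjusted p reached 0.215 and the log2 fold change stayed between −1.70 and −1.39. Without the per1b-low libraries, which leaves 1 library at 8 hpl whose spread is taken from the other groups, both calls ended (tfap2b −1.04, adjusted p = 0.051; chata −1.59, adjusted p = 0.103). calb2b fell in that fit, at −1.31 (adjusted p = 0.00454), where 4.9% of all genes were called.

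The number of markers called at 8 hpl depended on the test. The DESeq2 Wald test called 5 (tfap2b, chata, neurod4 and slc32a1 lower, gad2 higher), beside 7.21% of all genes, and limma-voom 2, beside 2.31%. A fit of the 2 groups alone called 5, beside 5.27%, edgeR with DESeq2 size factors 1, beside 2.86%, and a fit with the replicate number as a block 0, beside 0.74%. At an unadjusted p under 0.05 there were 9 of 27 in the edgeR test, beside 16.2% of all genes.

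No other amacrine marker passed at 8 hpl, the genes of the GABA-synthesising enzymes included. gad2 (ENSDARG00000015537) measured 89.1, 71.2 and 102 CPM at 8 hpl, while controls averaged 53.6 ± 0.722 CPM (SD, n = 3). All 8 hpl libraries were higher than any control. The log2 fold change was 0.71 ± 0.17 (adjusted p = 0.0533), the nearest of the 27 to an upward call. For gad1b it was −0.18 ± 0.26 (adjusted p = 0.815) with overlapping libraries, and a difference between gad1b and gad2 was not tested. slc32a1, for the transporter that loads GABA and glycine into vesicles, measured 48.1, 74.4 and 55.3 CPM at 8 hpl and 103, 80.2 and 110 CPM in controls. Its groups did not overlap, and on the log2 scale the difference was −0.72 ± 0.21 (adjusted p = 0.106). The AP-2 gene tfap2a gave −0.54 ± 0.18 (adjusted p = 0.155) and calb2b −0.69 ± 0.51 (adjusted p = 0.581), both with all 8 hpl libraries below the controls. The glycine transporter gene slc6a9, the GABA transporter genes slc6a1a and slc6a1b, and calb2a, the second calretinin gene, gave −0.36, −0.02, −0.21 and −0.42 (adjusted p between 0.420 and 0.983).

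None of the 8 bipolar markers passed at 8 hpl in edgeR (3 had an unadjusted p under 0.05), and 4 of 8 log2 fold changes were below 0. neurod4 (ENSDARG00000003469) measured 201, 247 and 239 CPM at 8 hpl and 391, 376 and 342 CPM in controls. The groups were well apart, and on the log2 scale the difference was −0.69 ± 0.17 (adjusted p = 0.0650). cabp5b, the paralog of cabp5a, measured 85.0, 74.9 and 86.9 CPM at 8 hpl and 183, 142 and 122 CPM in controls, or on the log2 scale −0.85 ± 0.30 (adjusted p = 0.179). isl1, a LIM homeobox gene of ON bipolar, amacrine and ganglion cells, gave −0.56 ± 0.18 (adjusted p = 0.143), and gnao1b −0.44 ± 0.20 (adjusted p = 0.320). In both, the 8 hpl libraries lay below the controls. Other ON cascade markers of the 27 gave values above 0, and none of them passed. trpm1a, for the channel, gave 0.29 ± 0.18 (adjusted p = 0.508), and gng13b, for a G protein gamma subunit, 0.02 ± 0.18 (adjusted p = 0.977).

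Among the remaining classes, rbpms2b measured 17.8, 39.3 and 19.1 CPM at 8 hpl and 51.7, 48.2 and 39.1 CPM in controls. Replicate 2 lay at the level of the lowest control and the other 8 hpl libraries far below, and on the log2 scale the difference was −0.87 ± 0.32 (adjusted p = 0.216). prox1a gave −0.11 ± 0.22 (adjusted p = 0.876) and isl2b −0.04 ± 0.53 (adjusted p = 0.987). The 5 pan-neuronal genes stayed between −0.15 and 0.13. Of all 27 markers 21 had a log2 fold change below 0, and the median was −0.18, against 0.02 over all genes tested. In 11 of the 27 every 8 hpl library lay below every control in CPM and in 1 every one lay above, where 12.9% and 13.9% of all genes tested did so.

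**Figure D2:**
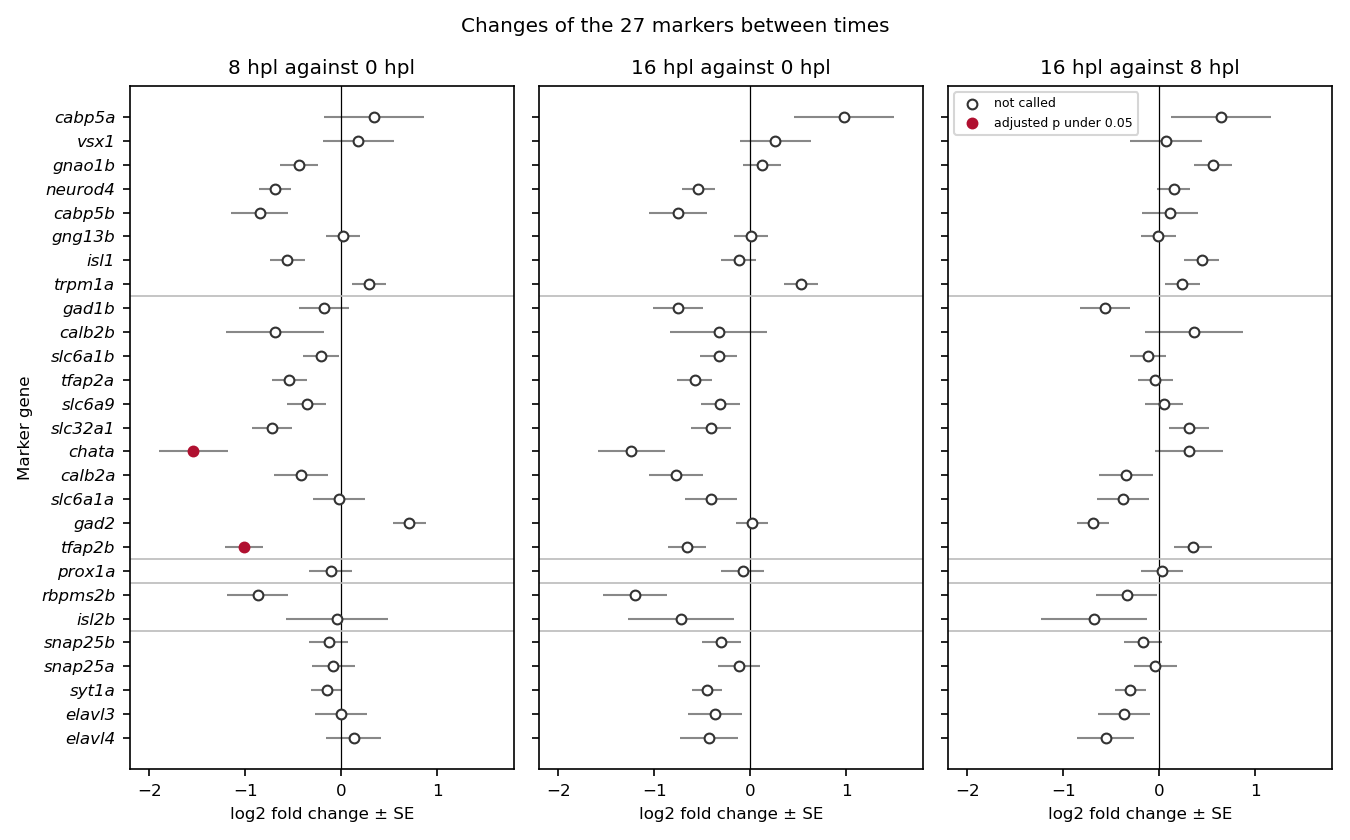
Log2 fold change ± SE of the 27 markers in the 3 comparisons, from 1 fit of all 9 libraries, grouped from top to bottom as bipolar, amacrine, horizontal, ganglion and pan-neuronal. Filled points mark the 2 genes with an adjusted p under 0.05, tfap2b and chata (chata at −1.54), both at 8 hpl against 0 hpl.

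At 16 hpl none of the 27 markers was called against 0 hpl in edgeR, where 2.09% of all genes were. At an unadjusted p under 0.05 there were 10 of 27, beside 14.8% of all genes. The DESeq2 Wald test called 3 (neurod4, chata and rbpms2b, all lower), beside 5.63%, and limma-voom 0, beside 1.56%. rbpms2b (ENSDARG00000079578) measured 26.1, 14.4 and 19.9 CPM at 16 hpl and 51.7, 48.2 and 39.1 CPM in controls. Every 16 hpl library was lower than every control, and on the log2 scale the difference was −1.20 ± 0.33 (adjusted p = 0.0995). chata measured 26.4, 10.7 and 11.5 CPM at 16 hpl, and its highest library lay just under the lowest control of 28.5 CPM. The log2 fold change was −1.24 ± 0.35 (adjusted p = 0.114).

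The transcription factor genes tfap2b, tfap2a and neurod4 had smaller estimated falls at 16 hpl than rbpms2b and chata. None of them passed, and differences between genes were not tested. tfap2b gave −0.66 ± 0.20 (adjusted p = 0.134), tfap2a −0.58 ± 0.18 (adjusted p = 0.142) and neurod4 −0.54 ± 0.17 (adjusted p = 0.157), all on the log2 scale and with groups that did not overlap. gad1b measured 188, 212 and 178 CPM at 16 hpl and 272, 236 and 464 CPM in controls. Its groups were apart, although control replicate 3 was far above the other controls, and the log2 fold change was −0.75 ± 0.26 (adjusted p = 0.205). gad2, at 53.0, 55.9 and 53.9 CPM, overlapped its controls (0.02 ± 0.17, adjusted p = 0.975). syt1a, for the calcium sensor of vesicle release, measured 101, 99.7 and 90.8 CPM at 16 hpl and 127, 133 and 140 CPM in controls, or on the log2 scale −0.45 ± 0.16 (adjusted p = 0.198).

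At 16 hpl 6 of the 27 log2 fold changes lay above 0. trpm1a (ENSDARG00000011259) measured 174, 232 and 185 CPM at 16 hpl and 129, 155 and 125 CPM in controls. It was the single marker of the 27 whose 16 hpl libraries all exceeded the controls, as 10.7% of all genes tested did, and on the log2 scale the difference was 0.53 ± 0.18 (adjusted p = 0.199). In 9 markers the 16 hpl libraries lay wholly below the controls, where 10.4% of all genes tested did so. The median over the 27 was −0.37, against 0.03 over all genes tested. By class it was 0.06 for bipolar, −0.41 for amacrine, −0.96 for ganglion and −0.37 for pan-neuronal markers. The ganglion value rests on 2 genes. Among further genes listed for these classes and taken up below, the medians were −0.47 (11 bipolar), −0.36 (10 amacrine) and 0.27 (12 ganglion genes). They were −0.86 for 8 horizontal and −0.22 for 17 synaptic and neuronal genes. The bipolar and ganglion medians thus differed in sign from those of the markers. The comparison of 16 hpl with 0 hpl shares its controls with the one at 8 hpl.

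Between 16 and 8 hpl none of the 27 differed in edgeR, where 0.101% of all genes were called (0.0403% lower). At an unadjusted p under 0.05 there were 3 of 27, beside 13.6% of all genes. The DESeq2 Wald test called 1 (gad2, lower), beside 3.56%, limma-voom 0, beside 0.0855%, and edgeR without the per1b-low libraries 0, beside 0.464%. gad2 measured 53.0, 55.9 and 53.9 CPM at 16 hpl and 89.1, 71.2 and 102 CPM at 8 hpl, so that its groups were apart, and on the log2 scale the difference was −0.69 ± 0.17 (adjusted p = 0.129). gnao1b measured 729, 841 and 624 CPM at 16 hpl and 466, 522 and 497 CPM at 8 hpl, or on the log2 scale 0.56 ± 0.20 (adjusted p = 0.265). With isl1 and tfap2b it was among 3 markers higher in every 16 hpl library, and gad1b, gad2 and syt1a were lower in every one, where 8.49% and 8.34% of all genes tested were so.

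Libraries of the same time differed widely in a few markers. The highest library of a marker was at most 2.14 times its lowest among the 3 libraries of 0 hpl, 2.2 times at 8 hpl and 4.85 times at 16 hpl, with medians of 1.32, 1.31 and 1.35. It was over 2 times in 1, 1 and 8 of the 27 markers at these times. Over all 9 libraries, 16 hpl replicate 2 held the highest value of 7 markers and the lowest of 7, 0 hpl replicate 3 the highest of 7 and the lowest of 1, and 16 hpl replicate 3 the highest of 0 and the lowest of 9. Of all libraries 16 hpl replicate 3 had the fewest expected counts, 11714633. How often all genes tested behaved in these ways was not determined, so none of this is read as particular to the markers. cabp5a measured 1330, 1330 and 1860 CPM at 0 hpl, 2160, 1430 and 2140 CPM at 8 hpl, and 1620, 6040 and 1260 CPM at 16 hpl. Replicate 2 at 16 hpl was far above all other libraries. Against 0 hpl, its log2 fold change was 0.34 ± 0.52 at 8 hpl and 0.98 ± 0.52 at 16 hpl, where adjusted p was 0.820 and 0.432. Without the per1b-low libraries it was −0.06 at 16 hpl.

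The calretinin gene calb2b measured 140, 124 and 131 CPM at 0 hpl, 92.0, 53.2 and 99.3 CPM at 8 hpl, and 57.9, 212 and 43.7 CPM at 16 hpl. All lesioned libraries other than 16 hpl replicate 2 were below the controls. Its log2 fold change at 16 hpl against 0 hpl was −0.33 ± 0.51 (adjusted p = 0.840). Without 16 hpl replicate 2 it was −1.37 (adjusted p = 0.0255), and slc6a1a passed too, at −0.82 (adjusted p = 0.0473), in a fit that called 2.63% of all genes. Without all 3 per1b-low libraries, where 7.52% of all genes were called, 3 of the 27 fell. These were calb2b at −1.36 (adjusted p = 0.000358), slc6a1a at −0.81 (adjusted p = 0.00588) and rbpms2b at −1.0 (adjusted p = 0.00602). slc6a1a measured 38.1, 72.0 and 34.3 CPM at 16 hpl and 66.3, 60.8 and 64.7 CPM in controls, so replicate 2 alone lay above them.

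The bipolar gene vsx1 measured 561, 512 and 423 CPM at 0 hpl, 440, 784 and 477 CPM at 8 hpl, and 833, 285 and 668 CPM at 16 hpl. Within each lesioned time the libraries low in vsx1 were those low in per1b. The mean of 8 hpl replicates 1 and 3 was 0.584 times replicate 2, and 16 hpl replicate 2 was 0.380 times the mean of replicates 1 and 3, where per1b gave 0.144 and 0.273. The same ratios were 0.470 and 0.629 for rbpms2b, 0.551 and 0.268 for isl2b, 1.51 and 4.19 for cabp5a and 1.8 and 4.18 for calb2b. These 5 markers differed over 1.5-fold the same way at both times, and the share of all genes that did so was not determined. Of them isl2b had as few as 11 counts in a library. Over the 27 the median ratios were 1.03 at 8 hpl and 1.07 at 16 hpl. The part of clock phase or of any other feature of these libraries in the values was not tested.

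**Figure D3:**
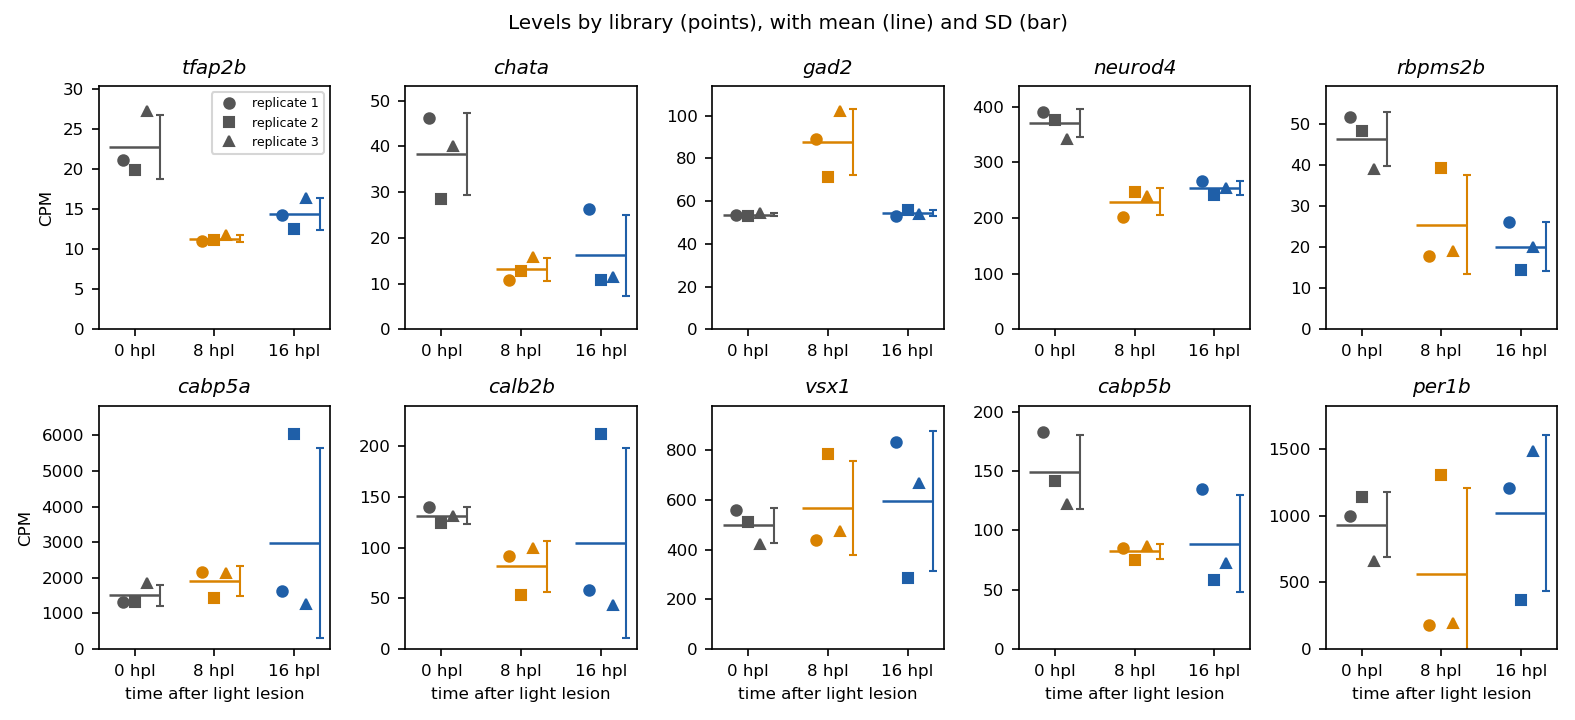
CPM of 9 markers and of the clock gene per1b in each library (points, shaped by replicate number), with the mean (line) and SD (bar, cut off at 0 for per1b) of 3 libraries. The libraries of tfap2b at 8 hpl, 11.0 to 11.8 CPM, lie below the controls, and 16 hpl replicate 2 stands alone for cabp5a at 6040 CPM and for calb2b at 212 CPM.

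Paralogs differed in level and in pattern. Reads of near-identical copies cannot be split with certainty, so these ratios depend on how the authors' counting assigned them. The ratio of cabp5a to cabp5b in FPKM was 8.63 to 17.8 at 0 hpl, 22.6 to 31.2 at 8 hpl and 13.6 to 126 at 16 hpl. It was higher in each 8 hpl library than in any control. snap25a to snap25b kept a ratio of 0.177 to 0.245 over the 9 libraries. gad1b to gad2 stood at 7.32 to 17.4 at 0 hpl, 5.01 to 7.22 at 8 hpl and 5.80 to 6.97 at 16 hpl. Every lesioned library lay below every control, at the nearest by 7.22 against 7.32. tfap2a to tfap2b stood at 3.79 to 4.38 at 0 hpl, 4.95 to 5.38 at 8 hpl and 3.03 to 5.05 at 16 hpl. The ratios of slc6a1a to slc6a1b, calb2a to calb2b and elavl3 to elavl4 overlapped between lesioned libraries and controls.

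Among 80 further genes listed for the same cell classes and for synapses, 58 were tested. At 8 hpl 1 rose and 3 fell, with a median log2 fold change of −0.17, and at 16 hpl 0 rose and 2 fell, with a median of −0.29. Over all genes tested 2.83% and 2.09% were called at these times, with medians of 0.02 and 0.03. All 11 further bipolar genes tested had a log2 fold change below 0 at both times, and 2 of them passed at each. gnb3b, for a G protein beta subunit whose mouse counterpart serves cones and ON bipolar cells, measured 708, 614 and 871 CPM at 0 hpl, 280, 201 and 319 CPM at 8 hpl, and 294, 174 and 261 CPM at 16 hpl. It fell at both times, at −1.45 ± 0.27 (8 hpl, adjusted p = 0.0234) and −1.59 ± 0.27 (16 hpl, adjusted p = 0.0169) as log2 fold changes. The cone gene gnat2, highest in CPM at 0 hpl of the 10 cone markers measured, fell too. Its log2 fold changes were −2.23 (8 hpl, adjusted p = 0.00951) and −2.42 (16 hpl, adjusted p = 0.00666). Cone markers did not all go this way, since 4 of the 10 lay above 0 at 8 hpl and 1 at 16 hpl. gnb3a, the paralog of gnb3b, gave −0.15 (adjusted p = 0.813) and −0.31 (adjusted p = 0.595). Whether reads of gnb3b came from cones or from bipolar cells was not tested. pcp4a, for a small calmodulin-binding protein, fell as well, at −0.88 ± 0.18 (8 hpl, adjusted p = 0.0308) and −0.94 ± 0.18 (16 hpl, adjusted p = 0.0254). vamp1, for a vesicle SNARE partner of SNAP25, fell at 8 hpl (−1.10 ± 0.19, adjusted p = 0.0185). map1aa, for a microtubule-associated protein, rose at 8 hpl, with 5.42 ± 0.239 CPM, against 2.22 ± 0.414 CPM at 0 hpl (1.28 ± 0.27 on the log2 scale, adjusted p = 0.0350).

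In the list of further amacrine genes, slc18a3a, for the vesicular acetylcholine transporter of the cholinergic cells that chata marks, measured 13.1, 12.9 and 17.6 CPM at 8 hpl and 37.9, 24.4 and 30.2 CPM in controls. The groups did not overlap, and the log2 fold change was −1.08 ± 0.26 (adjusted p = 0.0567). At 8 hpl the AP-2 gene tfap2c gave 0.01 (adjusted p = 0.989) and the homeobox gene meis2b −0.24 (adjusted p = 0.679). The highest further horizontal genes, calb1, prox1b and cx52.6, gave −0.71, 0.01 and 0.45 at 8 hpl (adjusted p between 0.410 and 0.993). Of the further ganglion genes, the intermediate filament gene inaa gave −0.55 (adjusted p = 0.399) and the synuclein gene sncga 0.71 (adjusted p = 0.0575). The axon guidance receptor gene robo2 has 2 entries, of which ENSDARG00000014891, with 3004 counts at 0 hpl, gave −0.65 (adjusted p = 0.297) with overlapping libraries. ENSDARG00000078366, with 355 counts, gave −1.02 (adjusted p = 0.119). Of genes of the ON cascade, rgs11, for a regulator of its G protein, gave −1.28 (adjusted p = 0.0653), nyx, for the synaptic protein nyctalopin, −0.79 (adjusted p = 0.173) and grm6b, for a metabotropic glutamate receptor, −0.60 (adjusted p = 0.479) at 8 hpl. These lie on the same side of 0 as gnao1b and gnb3b, and nyx and grm6b were named after their values were seen. All 11 further bipolar genes tested did so at 8 hpl, whether of the cascade or not. The cascade marker trpm1a gave 0.29 ± 0.18, and gng13b, at 0.02 ± 0.18, did not differ from 0 beyond its SE. grm6b measured 17.0, 33.0 and 16.9 CPM at 8 hpl and 37.2, 33.4 and 30.9 CPM in controls. Only its per1b-low libraries at 8 hpl thus lay below the controls. For rgs11 values were 51.7, 105 and 54.5 CPM at 8 hpl, 141, 82.7 and 142 CPM at 16 hpl and 190, 185 and 136 CPM in controls. All its 8 hpl libraries lay below the controls, and the per1b-low libraries were the lowest of each lesioned time. At 16 hpl rgs11 gave −0.48, nyx −0.05, grm6b −0.24 and gnao1b 0.12, and none of these passed. Of the same further bipolar list, lrit3a gave −0.17 (adjusted p = 0.895) and gnb3a, the paralog of gnb3b, −0.15 (adjusted p = 0.813) at 8 hpl. Both lay nearer 0 than rgs11, nyx and grm6b did. The vesicle fusion genes vamp2 and stxbp1b gave −0.08 and 0.12 (adjusted p = 0.921 and 0.889).

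Summed over the class, amacrine markers reached 1100 to 1420 CPM at 0 hpl, 928 to 1090 CPM at 8 hpl and 776 to 1070 CPM at 16 hpl. Bipolar markers summed to 3500 to 3670 CPM at 0 hpl, 3410 to 3840 CPM at 8 hpl and 3290 to 7940 CPM at 16 hpl, where the top value is that of replicate 2, the library with most cabp5a. The 27 markers together summed to 6160 to 6740 CPM at 0 hpl, 5850 to 6520 CPM at 8 hpl and 5250 to 10600 CPM at 16 hpl, and these groups overlapped. The 26 markers other than cabp5a, a sum made after its values were seen, came to 4830 to 5160 CPM at 0 hpl, 3970 to 4430 CPM at 8 hpl and 3980 to 4540 CPM at 16 hpl. The 6 lesioned libraries lay below all 3 controls in this second sum and not in the first, and abundant genes dominate both.

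RNA of other cells moved between the same libraries. Beside the counts of called genes below, 2.83% of all genes tested were called at 8 hpl and 2.09% at 16 hpl. The 10 measured cone markers summed to 2870 to 3850 CPM at 0 hpl, 1070 to 2430 CPM at 8 hpl and 783 to 1310 CPM at 16 hpl. Of them 4 of 10 fell at 8 hpl and 3 at 16 hpl, while 4 had a log2 fold change above 0 at 8 hpl and 1 at 16 hpl. The 13 rod markers summed to 77700 to 130000 CPM at 0 hpl, 104000 to 108000 CPM at 8 hpl and 47600 to 81700 CPM at 16 hpl. The 11 Müller glia markers summed to 1150 to 1750 CPM at 0 hpl, 1800 to 2040 CPM at 8 hpl and 1930 to 2490 CPM at 16 hpl, and 1 of 11, sox2, rose at 16 hpl. Most of that shift lay in apoeb, an apolipoprotein E gene, since the other 10 summed to 975 to 1210 CPM at 0 hpl, 1060 to 1170 CPM at 8 hpl and 879 to 1210 CPM at 16 hpl. At 16 hpl rlbp1a and cahz were lower in every library than in any control (−0.77 and −0.58 on the log2 scale, adjusted p = 0.266 and 0.324), while gfap was higher in every one (0.96, adjusted p = 0.0661). The 8 oligodendrocyte markers summed to 155 to 171 CPM at 0 hpl, 220 to 261 CPM at 8 hpl and 210 to 358 CPM at 16 hpl, and 1 of them, cldnk, rose at 16 hpl. Of these 4 lists a single oligodendrocyte gene was at 0 in every library. Of the 11 microglial genes aif1l made up most of the sum, and the other 10 came to 11.4 to 25.3 CPM. Markers of pigment epithelium (5 genes) summed to at most 20.2 CPM, of endothelium (3 genes) to 21.3 CPM and of erythrocytes (3 genes) to 1.77 CPM in any library. The part of these shifts in the marker values was not tested.

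**Figure D4:**
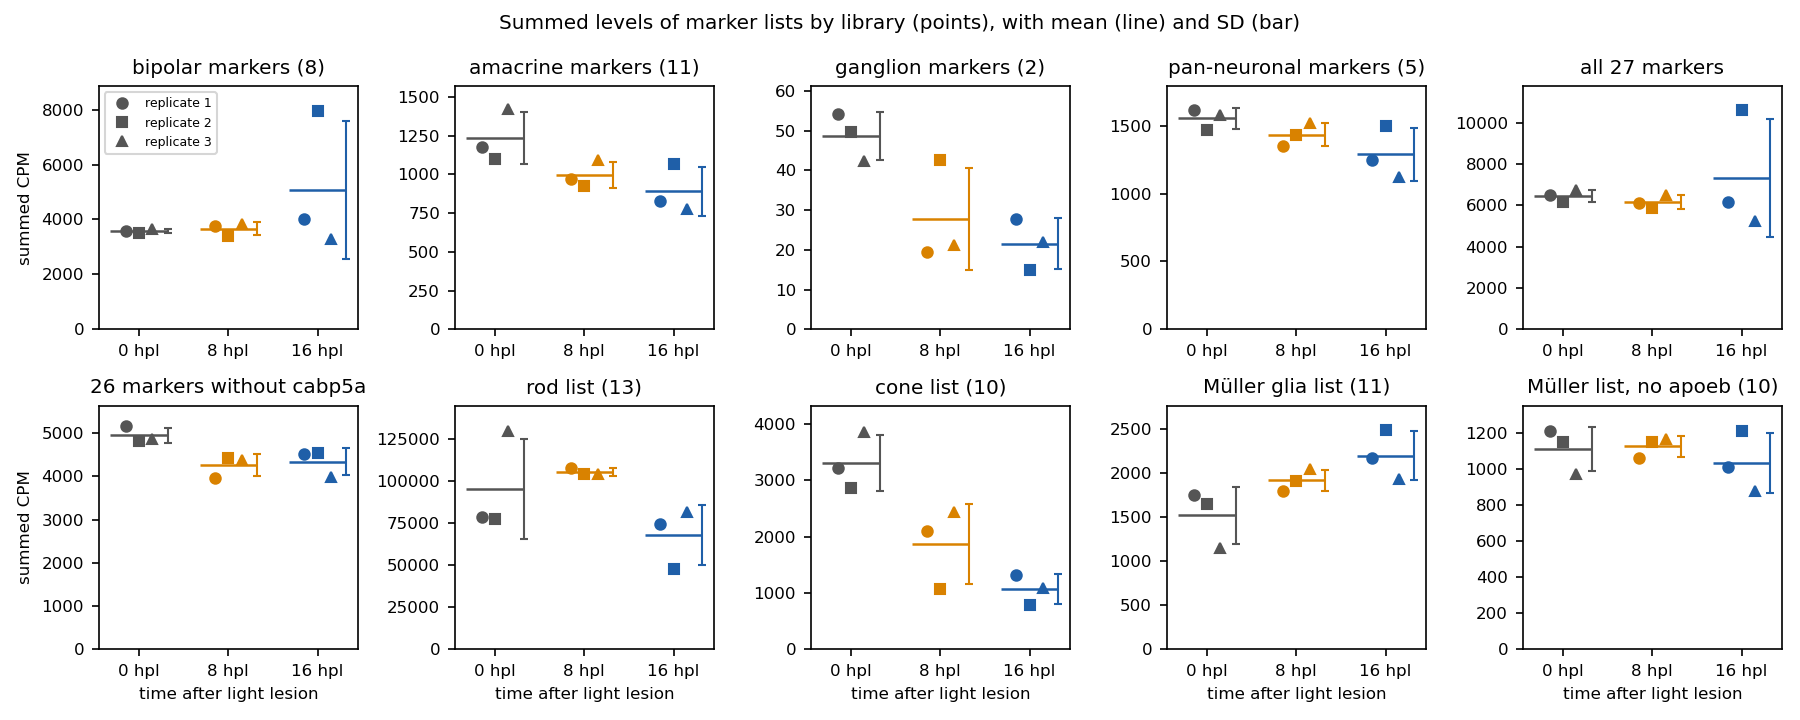
Summed CPM of marker lists in each library (points, shaped by replicate number), with the mean (line) and SD (bar) of 3 libraries and the number of genes in brackets. The sum of all 27 markers overlaps between times (5250 to 10600 CPM at 16 hpl, 6160 to 6740 CPM at 0 hpl), the 26 without cabp5a lie at 3970 to 4540 CPM in the lesioned libraries and at 4830 to 5160 CPM at 0 hpl, and the cone list lies at 783 to 1310 CPM at 16 hpl.

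The authors' deposited table, for which no model is stated, called more of these markers and of all genes. At 8 hpl the authors' deposited table has 3 of the 27 higher and 10 lower (adjusted p under 0.05), where 37.7% of its 15530 genes are called. At 16 hpl the authors' deposited table has 0 higher and 7 lower, where 13.2% are called. In the authors' deposited table the log2 fold changes at 8 hpl are 0.82 for gad2 (adjusted p = 0.000102), −1.33 for rbpms2b (adjusted p = 6.61e-05), −0.78 for neurod4 (adjusted p = 0.000212), −0.92 for tfap2b (adjusted p = 0.000246) and −1.54 for chata (adjusted p = 0.000602). For cabp5a at 16 hpl the authors' deposited table gives 0.21 (adjusted p = 0.605) and for calb2b −1.17 (adjusted p = 0.005).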

How the data were processed

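Per the submitters' processing notes, reads went through a set of programs given without role or order, namely RSEM 1.2.22, Bowtie2 2.2.6, limma 3.24.15, edgeR 3.10.2, FastQC 0.10.1, cutadapt 1.4.2 and Trim Galore 0.2.7, with genome build Zv9. Libraries were stranded and single-end, per the labels' protocols. The authors deposited expected counts per Ensembl gene, without normalization, and FPKM whose scaling factor is not stated. The comparison table the authors deposited holds log2 fold changes and p-values.

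Expected counts were rounded and fitted in 1 model of all 9 libraries with edgeR 4.0.16 in R 4.3.3 (filterByExpr by group, TMM factors of 0.873 to 1.07, robust quasi-likelihood F test, two-sided, 6 residual degrees of freedom), with Benjamini-Hochberg adjustment over 19875 genes. Standard errors were taken as the size of the log2 value divided by the root of F. CPM are TMM-normalised, and genes are compared with each other in FPKM. Alternatives used DESeq2 1.42.0 and limma-voom (limma 3.58.1). The fit was also run on simulated counts drawn without shared differences between libraries, and no result here rests on that run.

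The markers, the lists and the libraries set apart were chosen with earlier results of these data known. All 27 markers were reported. Of each further list, called genes and the 3 highest in FPKM at 0 hpl were named. Outside this rule, nyx, grm6b, lrit3a, gnb3a and a further robo2 entry were named too. No genome of build Zv9 was used, so no coordinates or sequences are given.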

Additional observations from a re-analysis of the deposited data

How the results depend on the processing

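The counts of called markers were small and varied with the setting. At 8 hpl against 0 hpl 2 were called, 1 with DESeq2 size factors, 5 with the DESeq2 Wald test, 0 with the replicate block, 1 without the 3 per1b-low libraries, 5 when the 2 groups were fitted alone, and 0 to 4 without single libraries. At 16 hpl against 0 hpl 0 were called, 3 by the DESeq2 Wald test, 3 without the per1b-low libraries, and 0 to 2 without single libraries. At 16 hpl against 8 hpl 0 were called, 1 by the DESeq2 Wald test, and 0 to 1 without single libraries. In the fits without single libraries the number of all genes called varied too. It was 95 to 1320 at 8 hpl against 0 hpl, where 563 were called with all libraries. At 16 hpl it was 103 to 661 against 0 hpl (415 with all libraries) and 0 to 677 against 8 hpl (20 with all libraries). The cause of the varying marker counts was not tested. No filter, a filter of 5 CPM in 3 libraries and limma-voom moved no count by over 1.5 times. Replicate numbers carry no stated pairing, and same-number libraries correlated by −0.40 to 0.10 in their deviations. Why the block called 0 markers was not tested. The block called 147 of all genes at 8 hpl. From CPM to the deposited FPKM, the log2 ratio of mean levels moved by over 1 SD in 4 of 81 cases. slc6a9, lower in every 8 hpl library than in any control in CPM, had 36.5 ± 11.1 FPKM at 8 hpl and 37.6 ± 6.61 FPKM at 0 hpl, with overlapping libraries. For elavl3 mean CPM was 11.5 at both 0 and 8 hpl, where FPKM was 5.46 ± 0.529 and 7.04 ± 1.51.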
